A study of Mus musculus with 6 samples.

Results

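The *Hox* genes measured here were the rows of the gene tables named Hox, a cluster letter from a to d and a number, without antisense or opposite-strand transcripts. There were 38 of them among 53715 listed genes: 11 of the HoxA cluster on chromosome 6, 10 of HoxB on chromosome 11, 9 of HoxC on chromosome 15 and 8 of HoxD on chromosome 2 (build mm10). *Hoxd4* was listed as a pair of rows with suffixes, which that pattern does not take, and its reads are given apart. The cells were calvarial cells, the mixed cells that collagenase and dispase release from the skull vault of newborn mice, and they were kept for 7 days in osteogenic medium with ascorbic acid, β-glycerophosphate and dexamethasone before RNA was taken. The labels call them osteoblasts. The comparison was between 3 *Fam102a* KO libraries and 3 Wild-type libraries. *Fam102a* KO mice lacked exons 2 and 3 of *Fam102a* in all tissues, through Cre recombinase driven by the *Actb* promoter, and Wild-type mice carried intact alleles, with C57BL/6J as the strain of both. The study speaks of independent experiments for its data in general, but the labels do not say whether the libraries of a genotype came from separate animals or cultures, so every p-value measures only the spread between these libraries, which may be technical.

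*Hox* genes encode homeodomain transcription factors and lie in 4 clusters in the mouse. Their order along a cluster matches the order in which they are expressed from head to tail, so that paralogue groups 1 to 4 mark the hindbrain, the branchial region and the neck, and groups 9 to 13 mark the lumbar, sacral, tail and distal limb levels. The frontal bone forms from cranial neural crest that expresses no *Hox* gene, whereas neural crest of the hindbrain that enters the second and more posterior arches expresses groups 2 to 4; the parietal bone forms mainly from cephalic mesoderm. Hox proteins bind DNA together with the TALE homeodomain proteins of the Pbx, Meis and Pknox families, retinoic acid activates the genes at the anterior end of each cluster, and Polycomb complexes keep silent clusters closed.

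Counts were also put on one scale as CPM, counts divided by the library's normalised total. The libraries held 12934473 to 21210150 gene reads in *Fam102a* KO and 12212169 to 19985762 in Wild-type, where a gene read lies in an exon or an intron of a gene, and 6934206 to 9928262 exon reads in *Fam102a* KO and 5801394 to 9558946 in Wild-type. *Fam102a*, the targeted gene, had 185, 260 and 257 gene reads in *Fam102a* KO and 170, 249 and 244 in Wild-type, and 123, 174 and 157 exon reads in *Fam102a* KO against 124, 206 and 207 in Wild-type. Such whole-gene reads do not test the genotype, because only exons 2 and 3 were deleted. Its exon-exon junction reads were 17, 24 and 21 in *Fam102a* KO and 27, 43 and 45 in Wild-type. Of the osteoblast list all 10 genes had reads, but Bglap, the gene of osteocalcin, had 0, 53 and 0 gene reads in *Fam102a* KO and 6, 0 and 0 in Wild-type. Col2a1, the cartilage collagen gene, stood at 890 to 1978 CPM in *Fam102a* KO and 1753 to 2226 CPM in Wild-type. The macrophage genes of the blood cell list together reached 357 to 1609 CPM in *Fam102a* KO and 736 to 2060 CPM in Wild-type. The files of replicates 2 and 3 of both genotypes carried 1 sequencing-run label that those of replicate 1 did not. Where levels differ in such bulk RNA, fewer cells of a type and less RNA per cell cannot be told apart.

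The Hox clusters were expressed at very low levels. All 38 genes together took 317, 267 and 300 exon reads in the *Fam102a* KO libraries and 125, 171 and 189 in the Wild-type libraries. As summed CPM this was 46.5, 27.2 and 32.4 in *Fam102a* KO and 22.1, 19.8 and 19.4 in Wild-type. Every *Fam102a* KO library was above every Wild-type library. At least 1 exon read was found for 24, 31 and 24 of the genes in the *Fam102a* KO libraries and for 21, 28 and 29 in the Wild-type libraries. *Hoxa6* had 0 reads in all 6 libraries, and a count of 0 allows up to 3 reads a library, which is 0.306 to 0.440 exon CPM in *Fam102a* KO and 0.308 to 0.530 in Wild-type (counting error only). The 8 genes with enough exon reads to be tested held 79.8% of the 1369 Hox exon reads.

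**Figure D1:**
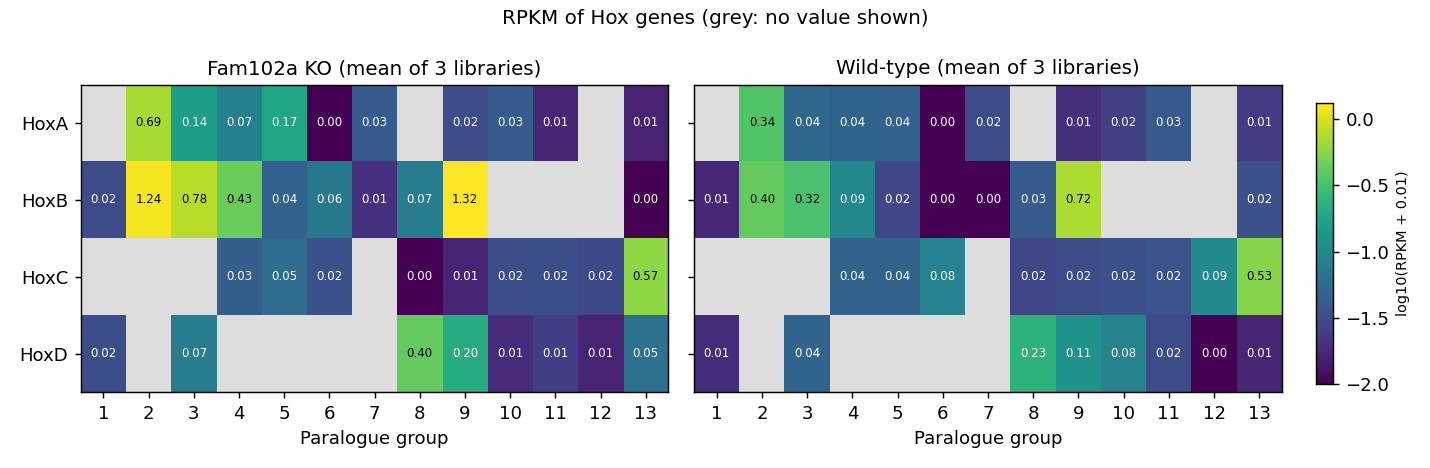
Mean RPKM of 37 of the 38 *Hox* genes in 3 *Fam102a* KO libraries (left) and 3 Wild-type libraries (right), with clusters in rows, paralogue groups in columns and a log10(RPKM + 0.01) colour scale, where grey cells show no value. *Hoxa2*, *Hoxb2*, *Hoxb3*, *Hoxb9*, *Hoxc13* and *Hoxd8* stood above a field of genes near 0 in both genotypes and *Hoxb4* did so in *Fam102a* KO, and *Hoxb9* was highest at 1.32 in *Fam102a* KO and 0.724 in Wild-type.

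Levels between genes were compared per length, as RPKM, which for the *Hox* genes divides exon reads by exon length and by the library's gene reads. For 7 of the 8 genes tested on exon reads, the order in *Fam102a* KO was *Hoxb9* at 1.32 ± 1.07, *Hoxb2* at 1.24 ± 0.758, *Hoxb3* at 0.783 ± 0.241, *Hoxa2* at 0.688 ± 0.252, *Hoxc13* at 0.573 ± 0.0879, *Hoxb4* at 0.433 ± 0.0889 and *Hoxd8* at 0.403 ± 0.0857 (mean RPKM ± SD, n = 3). In Wild-type it was *Hoxb9* at 0.724 ± 0.533, *Hoxc13* at 0.534 ± 0.0889, *Hoxb2* at 0.403 ± 0.176, *Hoxa2* at 0.339 ± 0.162, *Hoxb3* at 0.317 ± 0.0324, *Hoxd8* at 0.226 ± 0.105 and *Hoxb4* at 0.0876 ± 0.0270. Neighbours in either order differed by less than the larger of their SDs, except *Hoxc13* and *Hoxb4* in *Fam102a* KO and *Hoxd8* and *Hoxb4* in Wild-type. No gene outside these 8 averaged above 0.195 RPKM in *Fam102a* KO (*Hoxd9*) or 0.113 RPKM in Wild-type (also *Hoxd9*). Among the 13858 genes tested on exon reads, 73.5% had a higher mean RPKM than *Hoxb9* and 93.1% had a higher one than *Hoxb4*. *Prrx1* and *Msx1*, homeobox genes of the skull picked after their values were seen, were far above this range. Not all such genes were. Of 25 listed homeobox genes of the head skeleton only 16 had enough gene reads to be tested. *Dlx3*, below that filter, averaged 0.0963 RPKM in *Fam102a* KO and 0.159 RPKM in Wild-type. *Prrx1*, a paired-related gene of the skeletal mesenchyme, averaged 17.2 ± 2.29 RPKM in *Fam102a* KO and 15.3 ± 3.37 RPKM in Wild-type, and *Msx1*, which acts in skull bone growth, 18.4 ± 2.96 RPKM in *Fam102a* KO and 17.7 ± 6.79 RPKM in Wild-type.

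The homeobox, the 180-base stretch that encodes the DNA-binding homeodomain, is the part that *Hox* genes share most. It was located in the GENCODE M21 coding sequences (GRCm38) from the codons of the conserved core of the third helix, which contacts the DNA. It is printed for *Hoxb2*, among the tested genes with the largest differences, with those 6 codons (48 to 53 of the 60) in capitals. It lay at chr11:96352985-96353164 (plus strand), within a coding exon.
*Hoxb2*: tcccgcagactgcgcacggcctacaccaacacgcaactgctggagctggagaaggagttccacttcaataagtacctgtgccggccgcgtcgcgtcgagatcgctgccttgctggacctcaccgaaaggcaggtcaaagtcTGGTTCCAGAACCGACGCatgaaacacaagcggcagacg
The homeoboxes of the paralogues *Hoxb3* and *Hoxa3* were identical at 169 of 180 bases (93.9%), with a longest identical run of 33 bases. Across the 45 pairs of the 10 *Hox* genes that passed the filter, identity was 47.8% to 93.9%, and no pair shared a run over 33 bases. Of all 50-base windows in their transcripts, 0% of *Hoxc13*, 0.437% of *Hoxb4*, 25.9% of *Hoxb2* and 51.4% of *Hoxb3* were also found in a transcript of another gene, and for *Hoxb2* and *Hoxb3* that was the antisense transcript *Hoxb3os* alone, on the opposite strand.

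No *Hox* gene differed between *Fam102a* KO and Wild-type cells at an adjusted p under 0.05, on gene reads or on exon reads. Over all genes tested, 0.0183% were higher and 0.0305% lower at that threshold on gene reads, and 0.0216% and 0.0577% on exon reads. Among the *Hox* genes tested, those of paralogue groups 2 to 4 had the largest differences, all towards higher counts in *Fam102a* KO. In gene reads the largest were 3.84-fold for *Hoxb4*, 2.59-fold for *Hoxa3*, 2.51-fold for *Hoxb2* and 2.36-fold for *Hoxb3*. Of these *Hoxb4* passed the filter on low counts through its *Fam102a* KO libraries alone. Without that filter, genes with few reads reached log2 fold changes of 4.73 (*Hoxb6*) and -3.20 (*Hoxb13*) on gene reads. Counts were compared with edgeR's quasi-likelihood test, adjusted by Benjamini-Hochberg over every gene tested. The filter on low counts passed 10 *Hox* genes among 16391 genes on gene reads (among them *Hoxa2*, *Hoxa3*, *Hoxb2*, *Hoxb3*, *Hoxb4*, *Hoxb9*, *Hoxc5*, *Hoxc13* and *Hoxd8*), and 8 among 13858 on exon reads, without *Hoxa3* and *Hoxc5*. At an unadjusted p under 0.05, 4 of the 10 were higher and 0 lower on gene reads, against 2.92% and 3.12% of all genes tested. On exon reads 3 of the 8 were higher and 0 lower, against 3.41% and 3.40%. DESeq2 gave the same counts, 0 at the adjusted threshold and 4 and 3 higher at the unadjusted one.

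**Figure D2:**
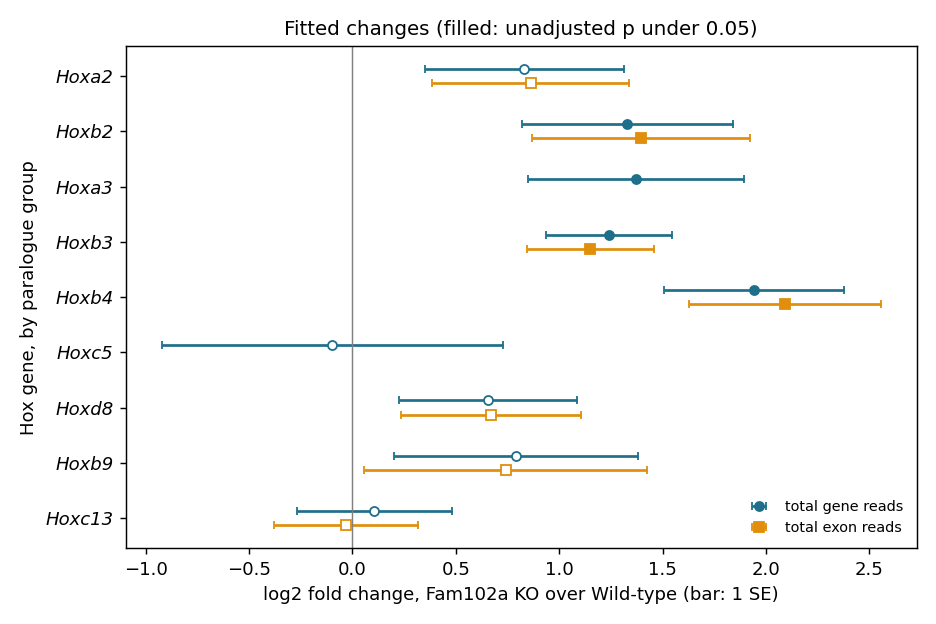
Log2 fold change of *Fam102a* KO over Wild-type for 9 of the 10 *Hox* genes past the filter, from top to bottom by paralogue group, on total gene reads (circles) and total exon reads (squares), with bars of 1 SE and filled symbols where the unadjusted p was under 0.05. *Hoxb4* lay farthest from 0 at 1.94 and 2.09, and *Hoxc5* and *Hoxc13* lay near 0.

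The log2 fold change was positive for 9 of the 10 genes on gene reads, with a median of 0.81, where the median of all genes tested was -0.00089 and 49.8% of them were positive. These counts describe only genes that passed the filter, which took a gene once at least 3 libraries reached 0.559 gene CPM. *Hoxb4* passed through its *Fam102a* KO libraries alone, with no Wild-type library above that level, so its difference is partly fixed by the filter. *Hoxa2* and *Hoxb2* had only 2 Wild-type libraries above it, and *Hoxa3* and *Hoxd8* only 1, beside 3 *Fam102a* KO libraries each. They also needed their *Fam102a* KO libraries to pass, so the counts of higher genes lean on the filter and are no independent support. Every *Fam102a* KO library was above every Wild-type library for 4 of the 10 genes on gene reads, as it was for 5.48% of all genes tested, and for 3 of the 8 on exon reads, against 6.05%. None of these *Hox* genes had every *Fam102a* KO library below every Wild-type library, against 5.61% of all genes tested on gene reads and 5.69% on exon reads. With the replicate number as a block, *Hoxb2* and *Hoxa3*, both among these 4 genes, no longer passed the unadjusted threshold on gene reads.

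**Figure D3:**
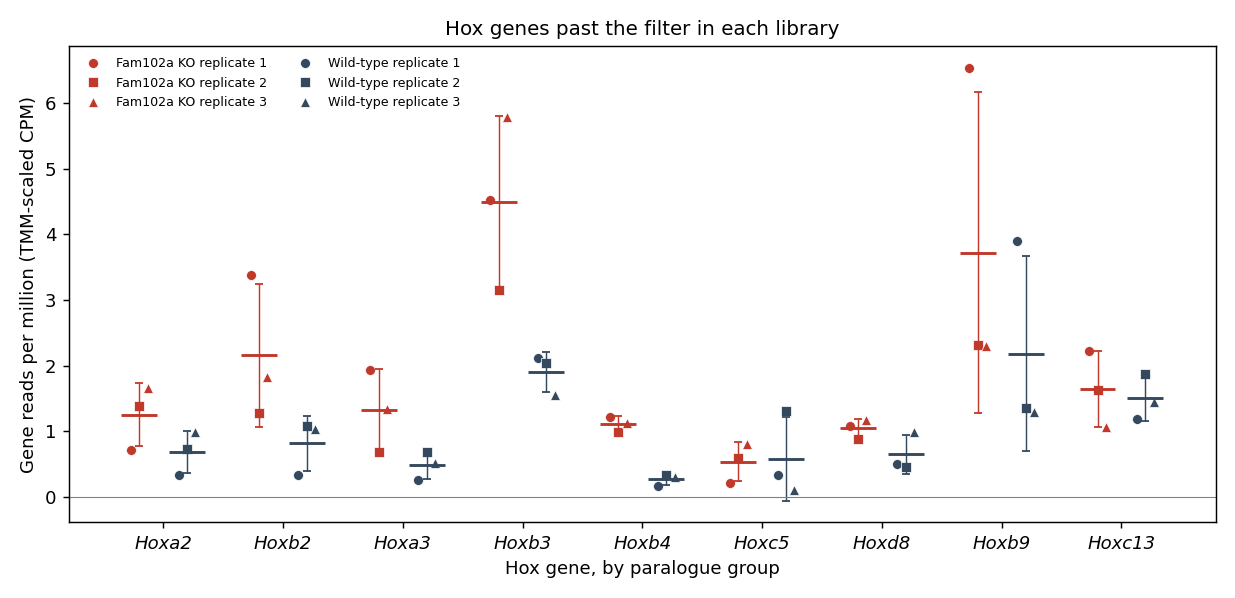
Gene CPM of 9 of the 10 *Hox* genes past the filter in each library, with *Fam102a* KO to the left of Wild-type for each gene, 1 symbol shape per replicate number, and the mean with its SD. For *Hoxb2*, *Hoxa3*, *Hoxb3* and *Hoxb4* the lowest *Fam102a* KO library stood above the highest Wild-type library, whereas in *Hoxb9* replicate 1 was far above the others in both genotypes (6.54 CPM in *Fam102a* KO and 3.90 CPM in Wild-type).

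*Hoxb4*, of paralogue group 4, is known for its expression behind a sharp boundary in the hindbrain and for expanding haematopoietic stem cells when overexpressed. It had 17, 20 and 21 gene reads in *Fam102a* KO and 2, 6 and 6 in Wild-type, of which 16, 18 and 21 and 2, 4 and 6 were exon reads. The *Fam102a* KO libraries lay within 0.988 to 1.22 gene CPM and the Wild-type libraries within 0.170 to 0.340 CPM, with no overlap. Its log2 fold change was 1.94 ± 0.43 (SE) on gene reads, with an unadjusted p of 0.00163 and an adjusted p of 0.289, and 2.09 ± 0.46 on exon reads, with an adjusted p of 0.253. Nearly all its exon reads (98.5%) were placed uniquely, and on uniquely placed gene reads the log2 fold change was 2.06. It entered the filtered fits through its *Fam102a* KO libraries alone, so these p-values are no independent support. In the fit without a filter on low counts its unadjusted p was 0.00118 and its adjusted p 0.0949 on gene reads. Exon-exon junction reads, which come from spliced RNA, were 0, 2 and 1 in *Fam102a* KO and 0 in all Wild-type libraries.

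The other genes of group 4 gave almost no reads: *Hoxa4* had 0, 1 and 5 exon reads in *Fam102a* KO and 1, 0 and 2 in Wild-type, and *Hoxc4* had 2, 1 and 1 in *Fam102a* KO and 1, 3 and 1 in Wild-type. *Hoxb4* held 55 of the 65 exon reads of group 4 in *Fam102a* KO and 12 of the 20 in Wild-type.

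In group 3, *Hoxb3* had the most gene reads of any *Hox* gene, 326 over the 6 libraries. *Hoxb3* acts in the hindbrain and in the pharyngeal arches. It had 63, 64 and 108 gene reads in *Fam102a* KO and 25, 36 and 30 in Wild-type, or 4.53, 3.16 and 5.79 CPM against 2.12, 2.04 and 1.55 CPM. All *Fam102a* KO libraries were above all Wild-type libraries, also on exon reads (48, 46 and 69 in *Fam102a* KO, 18, 26 and 24 in Wild-type). For *Hoxb3* the log2 fold change was 1.24 ± 0.31 (SE) on gene reads, with an unadjusted p of 0.00291 and an adjusted p of 0.381, and 1.15 ± 0.31 on exon reads, with an adjusted p of 0.398. Leaving out any 1 library kept it between 1.01 and 1.44. Without a filter on low counts, which admits 35404 genes, its adjusted p was 0.0179. In that setting 0.477% of all genes were higher at the adjusted threshold, against 0.0183% with the filter.

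*Hoxa3*, the paralogue of *Hoxb3* in HoxA, is needed for the thymus and parathyroid glands and the carotid arch. Its gene reads were 27, 14 and 25 in *Fam102a* KO and 3, 12 and 10 in Wild-type, and 41.8% of all its reads fell in introns. In CPM the groups were next to each other without overlap, with 0.691 as the lowest *Fam102a* KO value and 0.681 as the highest Wild-type value. *Hoxa3* had a log2 fold change of 1.37 ± 0.52 (SE), with an unadjusted p of 0.0279 and an adjusted p of 0.761. *Hoxd3*, the remaining member, had 1, 8 and 6 exon reads in *Fam102a* KO and 1, 6 and 1 in Wild-type. The unadjusted p of *Hoxa3* was 0.113 without *Fam102a* KO replicate 1, 0.0560 without *Fam102a* KO replicate 3, 0.0835 without Wild-type replicate 1 and 0.0658 without Wild-type replicate 3, and it was 0.0602 in the fit with the replicate block. In replicates 2 and 3 alone its log2 fold change was 0.75, with an unadjusted p of 0.231.

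Group 2 has only *Hoxa2* and *Hoxb2*. *Hoxa2* is the gene that gives the second arch its identity, and where it is lost first-arch elements form in its place; *Hoxb2* acts in facial motor neurons of the hindbrain. *Hoxb2* had 47, 26 and 34 gene reads in *Fam102a* KO and 4, 19 and 20 in Wild-type. Wild-type replicate 1 was the lowest library and *Fam102a* KO replicate 1 the highest, and the groups did not overlap (1.28 to 3.38 CPM in *Fam102a* KO and 0.339 to 1.08 CPM in Wild-type). The fitted log2 fold change was 1.33 ± 0.51 (SE) on gene reads, with an unadjusted p of 0.0288 and an adjusted p of 0.761, and 1.40 ± 0.53 on exon reads, with an adjusted p of 0.633. On gene reads it was 0.87 with an unadjusted p of 0.127 without *Fam102a* KO replicate 1, 1.01 with 0.0791 without Wild-type replicate 1, 0.55 with 0.250 in replicates 2 and 3 alone, and 1.25 with 0.0698 in the fit with the replicate block.

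*Hoxa2* had 10, 28 and 31 gene reads in *Fam102a* KO and 4, 13 and 19 in Wild-type. Within each genotype replicate 1 was the lowest library, and the groups overlapped (0.719 to 1.66 CPM in *Fam102a* KO and 0.339 to 0.984 CPM in Wild-type). Its log2 fold change of 0.83 ± 0.48 (SE) had an unadjusted p of 0.120 and an adjusted p of 0.961. It was higher in *Fam102a* KO by less than 2 SE. *Hoxb1* and *Hoxd1*, of group 1, had no more than 3 exon reads in any library.

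The region before the start of transcription was read for the 4 tested *Hox* genes that the RefSeq promoter table holds (GRCm38.p6, 250 bases before and 50 after the start). It is printed for *Hoxb4* and *Hoxa3*, which were higher in *Fam102a* KO at the unadjusted threshold, with capitals for matches on either strand to 5 motifs. These were the TATA box letters TATAAA, the CCAAT box, the GC box letters GGGCGG, the joint site of Pbx and Hox proteins written TGATNNAT, and the site of Meis and Pknox proteins written TGACAG. *Hoxb4* lay at chr11:96318017-96318316 (plus strand) and *Hoxa3* at chr6:52213018-52213317 (minus strand). *Hoxa4*, *Hoxa5* and *Hoxa6* lie between the *Hoxa3* window and the *Hoxa3* homeobox (chr6:52170519-52170698). *Hoxa3* has 4 transcripts in GENCODE M21, and only this start was read.
*Hoxb4*: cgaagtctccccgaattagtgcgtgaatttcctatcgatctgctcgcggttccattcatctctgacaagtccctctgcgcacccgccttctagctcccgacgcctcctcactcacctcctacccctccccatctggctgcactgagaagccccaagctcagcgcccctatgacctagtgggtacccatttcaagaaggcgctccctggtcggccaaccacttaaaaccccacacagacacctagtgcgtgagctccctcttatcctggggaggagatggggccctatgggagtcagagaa
*Hoxa3*: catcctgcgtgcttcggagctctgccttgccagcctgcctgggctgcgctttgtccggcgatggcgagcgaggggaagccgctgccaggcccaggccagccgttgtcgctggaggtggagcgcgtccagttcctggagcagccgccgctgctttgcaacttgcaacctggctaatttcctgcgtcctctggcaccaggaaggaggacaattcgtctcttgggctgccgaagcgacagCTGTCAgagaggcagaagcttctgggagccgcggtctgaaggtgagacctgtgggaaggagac
The window of *Hoxb4* matched none of the 5 motifs, and that of *Hoxa3* matched TGACAG once, which 19.2% of all 32851 promoter windows do. The window of *Hoxa2*, which did not pass the unadjusted threshold, held 1 TGATNNAT match (8.85% of all windows), 1 TGACAG match and 4 CCAAT matches (37.4%), of which 1 follows the TGACAG match directly without overlap. *Hoxd8* held 1 CCAAT match. A match is a description of these letters and no evidence of binding.

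In the middle of the clusters, groups 5 to 8, only *Hoxc5* and *Hoxd8* passed a filter. *Hoxd8*, which acts in the trunk, had 15, 18 and 22 gene reads in *Fam102a* KO and 6, 8 and 19 in Wild-type, all of them in exons. Wild-type replicate 3 reached the level of *Fam102a* KO. Its log2 fold change was 0.66 ± 0.43 (SE), with an adjusted p of 0.984. *Hoxc5* had 3, 12 and 15 gene reads in *Fam102a* KO and 4, 23 and 2 in Wild-type, 76.3% of them in introns; its span holds *Hoxc6*, *Hoxc8* and *Hoxc9* and overlaps *Hoxc10*, and its log2 fold change was -0.10 ± 0.82 (SE) with an adjusted p of 1.00.

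At the posterior end, *Hoxb9* and *Hoxc13* carried 2 other patterns. *Hoxb9*, a gene of the thoracic and lumbar trunk, had 91, 47 and 43 gene reads in *Fam102a* KO and 46, 24 and 25 in Wild-type. In each genotype replicate 1 stood apart, with 6.54 CPM against 2.32 and 2.31 CPM in *Fam102a* KO, and 3.90 CPM against 1.36 and 1.29 CPM in Wild-type. Within each replicate number the *Fam102a* KO library was the higher one, but the groups overlapped. The fit gave *Hoxb9* a log2 fold change of 0.79 ± 0.59 (SE) with an unadjusted p of 0.218 and an adjusted p of 1.00, whereas the fit with the replicate block gave 0.78 with an unadjusted p of 0.0185 and an adjusted p of 0.450. Without *Fam102a* KO replicate 1 it was 0.12 on gene reads and -0.11 on exon reads, and without Wild-type replicate 1 it was 1.46 with an unadjusted p of 0.0326.

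*Hoxc13*, known for its part in hair and nail formation, differed little between the genotypes. It had 31, 33 and 20 gene reads in *Fam102a* KO and 14, 33 and 28 in Wild-type, or 21, 30 and 20 exon reads in *Fam102a* KO and 13, 28 and 28 in Wild-type. The groups overlapped fully, and the log2 fold change was 0.11 ± 0.37 (SE) on gene reads and -0.03 ± 0.35 on exon reads, with an adjusted p of 0.999 on exon reads. Its exon level was 2.77 ± 0.524 CPM in *Fam102a* KO and 2.80 ± 0.476 CPM in Wild-type (SD, n = 3 each).

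The other 28 *Hox* genes fell below the filter on both kinds of count. Their exon reads over all 6 libraries were 0 to 31, with a median of 6 and never over 9 in 1 library. Together they had 37, 47 and 35 exon reads in *Fam102a* KO and 23, 37 and 30 in Wild-type. *Hoxc4*, *Hoxd3*, *Hoxd9* and *Hoxd11* had at least 1 exon read in every library; of these *Hoxd9*, a gene of the lumbar trunk and the limb, had 9, 8 and 3 in *Fam102a* KO and 5, 5 and 1 in Wild-type, and *Hoxd11* had 1, 1 and 1 in *Fam102a* KO and 2, 1 and 1 in Wild-type. *Hoxa5*, also chosen after its values were seen, had 6, 4 and 5 exon reads in *Fam102a* KO and 0, 2 and 2 in Wild-type. *Hoxb6* had 2 exon reads in each *Fam102a* KO library and 0 in each Wild-type library. None of the exon reads of *Hoxa5* and *Hoxb6* was uniquely placed. Picked after their values were seen, *Hoxd13* had 1, 3 and 3 exon reads in *Fam102a* KO and 0, 1 and 0 in Wild-type, and *Hoxd10* ran the other way, with 0, 1 and 0 in *Fam102a* KO and 4, 1 and 1 in Wild-type. Apart from *Hoxa6*, which had no reads, these genes were tested only in the fit without a filter on low counts, where none of them passed the adjusted threshold. At the unadjusted threshold *Hoxb6* was higher there on both kinds of read (p of 0.00780 and 0.0330). *Hoxc6*, with 1, 3 and 0 gene reads in *Fam102a* KO and 8, 3 and 7 in Wild-type, was lower on gene reads alone (p of 0.0186).

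The counts of most anterior genes rest largely on reads that were not uniquely placed. The tables also count uniquely placed reads, and these were 98.5% of the exon reads of *Hoxb4*, 98.3% of *Hoxb9* and 99.3% of *Hoxc13*, whereas they were 3.46% of *Hoxb3*, 2.33% of *Hoxb2*, 1.89% of *Hoxa3* and 2.27% of *Hoxd8*. None of the exon bases of *Hoxb4*, *Hoxb9* and *Hoxc13* in GENCODE M21 lay inside the span of another row of the tables. By contrast, 88.4% of the exon bases of *Hoxb3* and all of those of *Hoxb2*, *Hoxa3* and *Hoxd8* lay inside such a span, counting introns and both strands. For *Hoxb2* the row was *Hoxb3os*, transcribed from the opposite strand, and for *Hoxb3* the rows were *Hoxb3os* and *Gm11536*, both on the opposite strand. The exons of *Hoxb3os* shared 953 bases with *Hoxb2* and 2250 bases with *Hoxb3*. For *Hoxd8* the row was *Hoxd3os1*, also on the opposite strand. *Hoxb3os* itself had 22, 5 and 15 gene reads in *Fam102a* KO and 5, 1 and 4 in Wild-type. Whether strand was used in counting is not given in the sources used here, so reads of *Hoxb2* and *Hoxb3* and of their antisense partner cannot be told apart. Junction reads over all *Hox* genes were 3, 11 and 12 in *Fam102a* KO and 1, 6 and 5 in Wild-type.

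Summed over members, HoxB had the largest ratio with all libraries. Its 10 genes reached 29.2, 13.2 and 17.0 exon CPM in *Fam102a* KO and 11.8, 8.22 and 7.39 in Wild-type, a ratio of means of 2.17. The *Fam102a* KO libraries were all above the Wild-type libraries, as they were for HoxA (7.99 ± 1.84 CPM in *Fam102a* KO and 4.30 ± 1.13 CPM in Wild-type) and HoxD (4.02 ± 0.210 CPM in *Fam102a* KO and 2.73 ± 0.391 CPM in Wild-type). For HoxC the Wild-type libraries were higher, at 3.57 ± 0.472 CPM in *Fam102a* KO and 4.24 ± 0.447 CPM in Wild-type, with 3.87 as the highest *Fam102a* KO value and 3.88 as the lowest Wild-type value. These sums follow their most abundant members and were not tested. Without *Fam102a* KO replicate 1 the log2 ratio of HoxB was 0.72, against 1.12 with all libraries, and that of HoxA was 0.76, so that HoxB was no longer first.

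**Figure D4:**
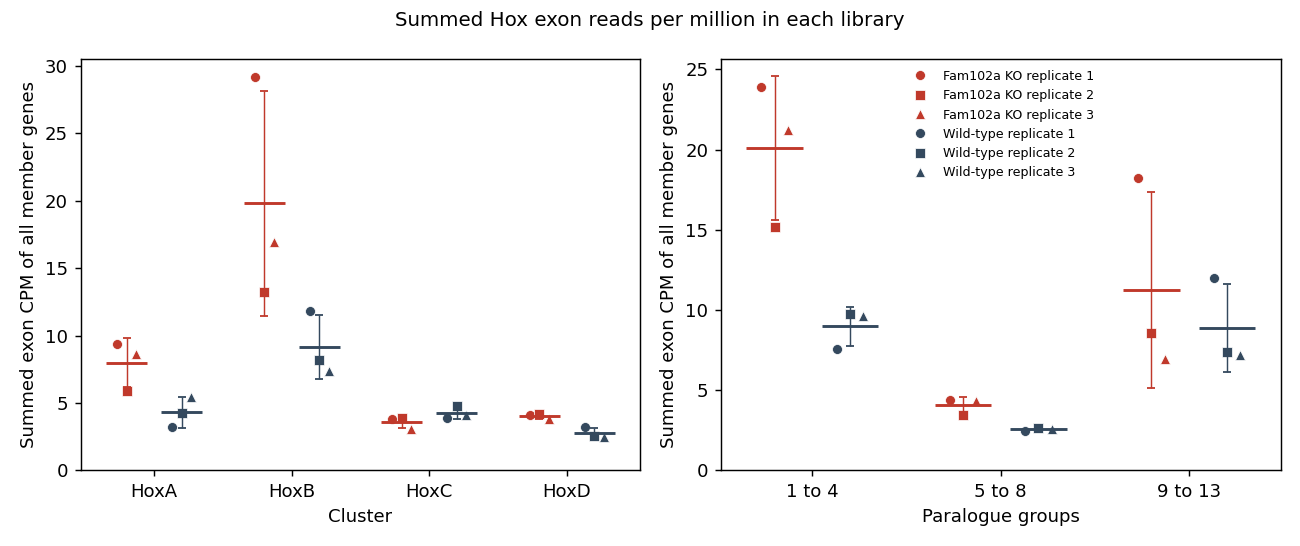
Summed exon CPM of all member genes in each library, by cluster (left panel) and by paralogue groups (right panel), with *Fam102a* KO to the left of Wild-type, 1 symbol shape per replicate number, and the mean with its SD. Groups 1 to 4 reached 15.2 to 23.9 CPM in *Fam102a* KO and 7.59 to 9.72 CPM in Wild-type, and groups 9 to 13 overlapped.

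With the clusters pooled, the ratio of *Fam102a* KO to Wild-type was larger at the anterior end. The 11 genes of groups 1 to 4 had 163, 149 and 196 exon reads in *Fam102a* KO and 43, 84 and 94 in Wild-type, and a ratio of mean CPM of 2.24. The 11 genes of groups 5 to 8 had 30, 34 and 40 in *Fam102a* KO and 14, 23 and 25 in Wild-type, a ratio of 1.58, also without overlap. The 16 genes of groups 9 to 13 had 124, 84 and 64 in *Fam102a* KO and 68, 64 and 70 in Wild-type, a ratio of 1.27 with overlapping libraries. Whether these ratios differ from each other was not tested. Single clusters did not follow this order: for groups 1 to 4, 5 to 8 and 9 to 13 in turn the ratio was 1.87, 2.81 and 1.06 in HoxA, 2.61, 2.97 and 1.59 in HoxB, 0.804, 0.550 and 0.908 in HoxC, and 1.73, 1.63 and 1.20 in HoxD. The middle groups rest on few reads, with 19 exon reads in *Fam102a* KO and 7 in Wild-type for HoxA, and 19 in *Fam102a* KO and 6 in Wild-type for HoxB. By single group, the ratio was 2.34 in group 2, 2.28 in group 3 and 3.11 in group 4, each with all *Fam102a* KO libraries above the Wild-type libraries. In groups 5 to 10 and in group 13 the libraries overlapped. Groups 11 and 12 had the Wild-type libraries higher, but from only 6 and 2 exon reads in *Fam102a* KO and 11 and 5 in Wild-type.

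The partners and regulators of *Hox* genes were looked at through lists. All 9 TALE cofactors were tested on gene reads and 0 passed the unadjusted threshold in either direction, with a median log2 fold change of 0.02. The cofactors with the highest RPKM were *Pbx2*, at 5.40 ± 1.26 RPKM in *Fam102a* KO and 5.12 ± 0.977 RPKM in Wild-type, and *Meis3*, at 5.09 ± 1.22 and 4.18 ± 0.0665 RPKM (SD, n = 3 each). *Meis1*, named here after its values were seen, had 232, 225 and 414 gene reads in *Fam102a* KO and 163, 187 and 163 in Wild-type, and a log2 fold change of 0.61 ± 0.28 (SE) with an adjusted p of 0.853.

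Of 31 Polycomb genes, all were tested and 1 was lower at the unadjusted threshold, with a median log2 fold change of -0.02. Over all genes tested on gene reads, 2.92% were higher and 3.12% lower at that threshold, the shares to set beside this list and the next ones. Of 13 Trithorax and H3K27 demethylase genes 0 passed that threshold, with a median of 0.03, and *Men1*, a subunit of a histone methyltransferase complex, was at 7.63 ± 0.365 RPKM in *Fam102a* KO and 7.34 ± 0.331 RPKM in Wild-type, and *Ash2l*, another subunit, at 4.86 ± 0.509 and 4.44 ± 0.298 RPKM. No gene of these lists passed the adjusted threshold.

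In the retinoid list, 14 of 16 genes were tested, the median log2 fold change was 0.14, and 1 gene was lower at the unadjusted threshold. *Aldh1a1*, an enzyme that makes retinoic acid from retinaldehyde, had 82.8, 83.0 and 77.9 CPM in *Fam102a* KO and 141.4, 121.7 and 192.6 CPM in Wild-type, with no overlap and a log2 fold change of -0.90 ± 0.17 (SE), but an adjusted p of 0.177. Among 25 homeobox genes of the head skeleton 16 were tested, with a median of -0.08, and 1 was lower at the unadjusted threshold: *Alx4*, an aristaless-type gene of the skull vault, at 99.6, 86.6 and 93.0 CPM in *Fam102a* KO and 112, 106 and 126 CPM in Wild-type (log2 fold change -0.31 ± 0.11 SE, adjusted p 0.757). Of the 8 Evx and ParaHox genes, the nearest relatives of the clusters, only *Gsx1* was tested, at 0.384 ± 0.123 RPKM in *Fam102a* KO and 0.345 ± 0.0220 RPKM in Wild-type, and *Pdx1* was at 0.291 ± 0.253 and 0.156 ± 0.0801 RPKM.

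Markers of other cell types were set beside these values. The trunk and limb mesoderm list, of 8 genes, summed to 143 to 260 CPM in *Fam102a* KO and 188 to 257 CPM in Wild-type, and 0 of its 6 tested genes passed the unadjusted threshold. The neural and Schwann list summed to 39.8 to 70.2 CPM in *Fam102a* KO and 46.5 to 56.5 CPM in Wild-type; in it *Sox10*, the neural crest and glial factor, had 78, 264 and 60 gene reads in *Fam102a* KO and 38, 23 and 13 in Wild-type (log2 fold change 2.14 ± 0.73 SE, adjusted p 0.757), and *S100b*, a glial protein, was lower in *Fam102a* KO at the unadjusted threshold (log2 fold change -1.13 ± 0.36 SE, adjusted p 0.705). Of the 10 cell type lists, the skeletal muscle list alone had sums that did not overlap, with 67.4, 40.5 and 39.1 CPM in *Fam102a* KO and 35.8, 39.0 and 25.3 CPM in Wild-type, most of it *Des* and *Acta1*, while *Myod1*, *Myog* and *Myf5* had 0 to 4 gene reads in every library. *Kit*, of the haematopoietic progenitor list, had 20, 33 and 22 gene reads in *Fam102a* KO and 8, 11 and 16 in Wild-type (log2 fold change 0.98 ± 0.36 SE, adjusted p 0.740). Of the 5 tested genes of that list, 2 had a positive and 3 a negative log2 fold change, with a median of -0.01. In the osteoblast list 3 of 9 tested genes were lower in *Fam102a* KO at the unadjusted threshold, against 3.12% of all genes tested. These were *Alpl*, *Sp7* and *Runx2*, with adjusted p of 0.161, 0.193 and 0.603. Of the 9 genes 5 had a positive and 4 a negative log2 fold change, with a median of 0.02. The sums of this list overlapped (20411 to 21209 CPM in *Fam102a* KO and 18751 to 22938 CPM in Wild-type). In the chondrocyte list all 6 genes had a negative log2 fold change, and 2 were lower at the unadjusted threshold, against 3.12% of all genes tested. They were Col9a1, a cartilage collagen gene (log2 fold change -1.38 ± 0.40 SE, adjusted p 0.668), and *Comp*, a cartilage matrix protein. *Comp* was lower also at the adjusted threshold (log2 fold change -1.51 ± 0.16 SE, adjusted p 0.0260). The sums of the chondrocyte list overlapped (1059 to 2237 CPM in *Fam102a* KO and 2174 to 2706 CPM in Wild-type). The sums of the endothelial list (9.78 to 92.9 CPM in *Fam102a* KO and 41.9 to 74.4 CPM in Wild-type), the haematopoietic progenitor list (46.6 to 78.9 and 56.3 to 73.0 CPM), the neural crest mesenchyme list (32.2 to 39.3 and 32.0 to 44.0 CPM) and the epithelial list (1.02 to 1.38 and 1.19 to 1.95 CPM) overlapped between the genotypes. The part of these cells in the Hox values was not tested.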

How the data were processed

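RNA from calvarial cells after 7 days in osteogenic medium (3 *Fam102a* KO and 3 Wild-type libraries) was amplified as SMART-seq v4 cDNA and sequenced on an Ion Proton by the authors, who mapped and counted reads in CLC Genomics Workbench (build mm10; how reads were mapped, with which annotation and whether by strand was not given in the sources used here). Per gene, the deposited tables hold RPKM and TPM, computed by the authors from the counts, and those counts as whole numbers: reads in the gene, its exons, its introns and its exon junctions, each in total and for unique placement. TPM was not used. For rows with exons, RPKM divides exon reads by exon length and by the library's gene reads.

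Counts were scaled by TMM, filtered with filterByExpr (minimum count 10) and tested by edgeR 4.0.16 (glmQLFit, robust; R 4.3.3) with Benjamini-Hochberg adjustment over all genes tested; the script was tested on simulated data. CPM are TMM-scaled. DESeq2 1.42.0 and limma 3.58.1 served as alternatives. The study's own test was a Student's t test, and the paper does not say on which values it was run. Members and lists were chosen with earlier results of these data known. Each *Hox* gene past the filter is given in full, cell type lists are given by their sums and chosen genes, and genes of the other lists are named at an unadjusted p under 0.05, or else the 2 of highest RPKM, except that 1 *Hox* gene and 1 Polycomb gene enter the counts, sums and tests but are not reported here by themselves. Same-numbered libraries deviated together (r = 0.345, 0.222 and 0.239 over 14259 genes, other pairs at most 0.0658). The numbers were therefore taken as pairs in the alternative fit with the replicate block, from this check and not from the labels. The main fits, and all p-values given without a named setting, used no pairing. Homeoboxes and overlaps were read from GENCODE M21, promoters from RefSeq.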

Additional observations from a re-analysis of the deposited data

How the results depend on the processing

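An adjusted p under 0.05 was reached by a *Hox* gene in 1 alternative alone. Without a filter on low counts *Hoxb3* passed on gene reads (1 of 37 *Hox* genes, adjusted p 0.0179). In that setting 0.477% of all genes were higher at the adjusted threshold, against 0.0183% in the main fit. *Hoxa2*, *Hoxa3*, *Hoxb2*, *Hoxb3* and *Hoxd8* kept a positive log2 fold change in every alternative that gave a value, and *Hoxb3* also kept an unadjusted p under 0.05. So did *Hoxb4*, which however entered the filtered fits through its *Fam102a* KO libraries alone. Of these genes all but *Hoxb3* needed *Fam102a* KO libraries to pass the filter. On uniquely placed reads *Hoxa3*, *Hoxb2*, *Hoxb3* and *Hoxd8* gave no value, so that setting did not test them. The uniquely placed exon reads of *Hoxb3* were 0, 0 and 6 in *Fam102a* KO and 0, 1 and 1 in Wild-type. The number of *Hox* genes higher at an unadjusted p under 0.05 on gene reads, 4 of 10, was 1 of 4 with at least 10 reads in every library, 1 of 4 on uniquely placed reads, 2 in replicates 2 and 3 only and 2 to 4 with 1 library left out, and without a filter 1 was lower. Of all genes tested, 2.92% were higher in the main fit and 3.15%, 3.17%, 2.68% and 1.77% to 4.36% in these settings in turn. Without a filter 3% of all genes were lower. On exon reads, 3 of 8 were higher (3.41% of all genes tested), against 6 of 37 without a filter (3.06% of all genes). With at least 10 reads in every library it was 1 of 4 (3.51%), and on uniquely placed reads 1 of 4 (3.42%). With the replicate block 3 were higher on each kind of read, against 4.09% of all genes on gene reads and 4.84% on exon reads. *Hoxb9* then passed the unadjusted threshold, *Hoxb2* did not (nor *Hoxa3* on gene reads), and the block changed no other call of a *Hox* gene. The log2 fold change of *Hoxc5* was 0.13 with the replicate block, 0.00099 in replicates 2 and 3 only and -0.63 to 0.24 with 1 library left out. That of *Hoxc13* on gene reads was -0.30 in replicates 2 and 3 only, -0.032 on total exon reads and -0.16 to 0.34 with 1 library left out, and on exon reads it was 0.088 and 0.036 by limma on log2(RPKM + 0.1) and log2(RPKM + 1), where the median of all genes was 0.12 and 0.082, and -0.14 to 0.11 with 1 library left out. That of *Hoxb9* on exon reads was -0.11 to 1.50 with 1 library left out. The causes were not tested. Over all genes, edgeR called 3 higher and 5 lower on gene reads and 3 and 8 on exon reads. DESeq2 called 49 and 72, and 46 and 74. Without a filter edgeR called 169 and 171, and 157 and 169, and with the replicate block 5 and 4, and 15 and 27. Low counts were one limit, since the 28 *Hox* genes below the filter on both kinds of read had at most 9 exon reads in any library.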

Other observations

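The 4 clusters also hold 48 other rows of the tables by coordinates, among them antisense transcripts, miRNA genes and the rows of *Hoxd4*, and 23 had 0 gene reads in every library. Only *Hotairm1*, *Hoxaas2* and *Gm53* had enough reads to be tested, and 2 of them were higher in *Fam102a* KO at an unadjusted p under 0.05, against 2.92% of all genes. *Hotairm1*, a long noncoding RNA of the HoxA cluster, had 58, 62 and 44 gene reads in *Fam102a* KO and 13, 39 and 36 in Wild-type. Its groups did not overlap, at 3.20 ± 0.913 CPM in *Fam102a* KO and 1.73 ± 0.567 CPM in Wild-type (SD, n = 3 each), and the edgeR log2 fold change was 0.86 ± 0.35 (SE) with an adjusted p of 0.771. Of its gene reads 69.0% lay in introns. On exon reads, 93.6% of them uniquely placed, the groups overlapped and the log2 fold change was 0.52 ± 0.42 (SE) with an unadjusted p of 0.251 and an adjusted p of 0.946. *Hoxaas2*, which runs opposite to *Hoxa3* and shares 503 exon bases with it, had 16, 17 and 35 gene reads in *Fam102a* KO and 9, 9 and 13 in Wild-type (log2 fold change 1.00 ± 0.44 SE, adjusted p 0.816), with only 6.12% of its exon reads placed uniquely. *Gm53*, between *Hoxb13* and *Hoxb9*, had 82, 66 and 44 gene reads in *Fam102a* KO and 27, 50 and 38 in Wild-type, and the groups overlapped (log2 fold change 0.68 ± 0.37 SE, adjusted p 0.944).

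The rows of *Hoxd4* had 7, 0 and 5 gene reads in *Fam102a* KO and 3, 0 and 8 in Wild-type for the first, and 0, 5 and 3 in *Fam102a* KO and 6, 3 and 0 in Wild-type for the second. They held 9 and 12 exon reads in all, of which 0 were uniquely placed, and no library had 0 gene reads in both rows.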
